A study of Homo sapiens with 6 samples.

Results

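The genes described here encode 9 enzymes of serine synthesis and folate-dependent one-carbon metabolism, taken by symbol from the 20042 genes of the count table. Of these, 5 act in the cytosol (PHGDH, PSAT1, PSPH, SHMT1 and MTHFD1) and 4 in mitochondria (SHMT2, MTHFD1L, MTHFD2 and ALDH1L2). The RNA came from MDA-MB-231, a human line of breast cancer origin long grown in culture, with 3 cultures given siRNA-1, a small interfering RNA directed against the transcript ERBBride (labelled as knock down), and 3 cultures given a control siRNA, siCTRL (labelled as WT). A small interfering RNA is a short duplex that guides the breakdown of matching transcripts, and 1 such sequence against ERBBride is represented in these samples. ERBBride is named in the series title as a long non-coding RNA tied to EGFR stability, and its own level was not analysed here, so its knockdown could not be checked. Per the labels the 3 cultures of a group are biological replicates, without word on how they were separated, and p-values then measure only the spread between these samples. The enzymes were chosen with the difference between siRNA-1 and siCTRL cells already known. Their own differences, and how many of them passed the threshold in the fit over all genes, are therefore given as a description and not as evidence.

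Cells make serine from 3-phosphoglycerate, an intermediate of glycolysis. PHGDH oxidises 3-phosphoglycerate, PSAT1 adds an amino group taken from glutamate, and PSPH removes the phosphate to release serine. Serine then gives a carbon unit to tetrahydrofolate and becomes glycine, a reaction run by SHMT1 in the cytosol and by SHMT2 in mitochondria. The mitochondrial unit is oxidised by MTHFD2, released as formate by MTHFD1L or burned to CO2 by ALDH1L2, and the formate that leaves is taken up again by MTHFD1 in the cytosol for the synthesis of purines and thymidylate. SHMT2 also has a transcript form whose protein stays in the cytosol, and gene counts do not separate the forms. MDA-MB-231 is known as a line with little PHGDH compared with breast cancer lines that carry extra copies of the gene. Several genes of this set are known targets of ATF4, the transcription factor of the amino acid response.

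Total counts per library ranged from 12813706 to 15014434, and 3 counts in a library were worth 0.234 CPM or less (CPM is the count divided by the library's scaled total and set to a common size of 1000000). The scaling used TMM, a trimmed mean of log ratios between libraries, and each fold change is siRNA-1 over siCTRL. Of 6 marker genes of mesenchymal breast cells, all were abundant, with summed levels of 4420 to 4620 CPM in siRNA-1 and 7330 to 7650 CPM in siCTRL libraries. The 6 luminal markers summed to 9.80 to 10.9 CPM in siRNA-1 and 27.8 to 32.1 CPM in siCTRL libraries, with PGR at 0 throughout. Haematopoietic markers (4 genes, CD3E among those at 0) summed to 7.47 to 8.74 CPM in siRNA-1 and 14.6 to 19.4 CPM in siCTRL libraries. The 6 endothelial and fibroblast markers, with CDH5 and DCN at 0, summed to 16.9 to 18.4 CPM in siRNA-1 and 26.9 to 29.2 CPM in siCTRL libraries. These marker sums moved with the groups, and their part in the results below was not tested. The library siCTRL 2 stood apart from the other controls. The SD of its log2 difference from them was 0.236 and 0.247 over genes with a mean of at least 100 counts, against 0.131 between siCTRL 1 and siCTRL 3.

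Serine synthesis genes and most mitochondrial folate genes were lower in siRNA-1 cells, whereas the cytosolic gene MTHFD1 was level. PHGDH, the entry enzyme, stood lowest at 6.10% of control, followed by PSAT1 at 26.6%, MTHFD1L at 41.3%, PSPH at 53.0% and SHMT2 at 54.9%. MTHFD2 (80.2%) and SHMT1 (83.6%) were slightly lower. Of the 9 genes, 8 passed the filter on low counts and ALDH1L2 did not. By edgeR's quasi-likelihood test 7 of the 8 were called lower (adjusted p under 0.05) and 0 higher, in a comparison where 62.5% of all 12440 genes tested were called, 31.0% lower and 31.5% higher. PHGDH, PSAT1 and MTHFD1L were called at least 2-fold lower, as were 8.14% of all genes tested. The call of SHMT1 was lost, leaving 6, without siRNA-1 1, without siRNA-1 3 and without siCTRL 3. The groups did not overlap at the same 7 genes, and siRNA-1 lay below siCTRL in this way at 33.0% of all genes tested and above it at 34.6%. These counts are given beside their backgrounds, and nothing is read from them, since the genes were chosen on this contrast. In bulk RNA, fewer cells that express a gene and less RNA per cell cannot be told apart.

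Promoter sequences are shown for the 3 lowest genes with an entry in the RefSeq table (GRCh38.p14) and for MTHFD1, the gene that was level. Each window runs from 250 bases before the annotated start to 50 bases after it, 5′ to 3′ on the strand of the gene. Capitals mark 3 motifs searched on both strands: TGATGNAA, the core of the element bound by ATF4 with C/EBP partners, CCAAT, the box bound by NF-Y, and CACGTG, the E-box bound by MYC and related factors. The last pair of motifs was added after the windows were seen.
PHGDH (chr1:119711684-119711983, plus strand): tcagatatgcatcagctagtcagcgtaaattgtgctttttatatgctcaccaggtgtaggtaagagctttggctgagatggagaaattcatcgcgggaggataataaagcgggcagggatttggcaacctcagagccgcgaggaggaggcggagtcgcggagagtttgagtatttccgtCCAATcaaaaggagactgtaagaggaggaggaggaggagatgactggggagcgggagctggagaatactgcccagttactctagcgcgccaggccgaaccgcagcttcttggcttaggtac
PSAT1 (chr9:78296875-78297174, plus strand): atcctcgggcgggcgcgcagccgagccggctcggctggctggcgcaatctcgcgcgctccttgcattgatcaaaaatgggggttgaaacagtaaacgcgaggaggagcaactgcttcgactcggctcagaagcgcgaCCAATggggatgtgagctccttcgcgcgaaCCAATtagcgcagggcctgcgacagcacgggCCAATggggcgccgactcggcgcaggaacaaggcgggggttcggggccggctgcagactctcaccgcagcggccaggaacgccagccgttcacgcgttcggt
MTHFD1L (chr6:150866236-150866535, plus strand): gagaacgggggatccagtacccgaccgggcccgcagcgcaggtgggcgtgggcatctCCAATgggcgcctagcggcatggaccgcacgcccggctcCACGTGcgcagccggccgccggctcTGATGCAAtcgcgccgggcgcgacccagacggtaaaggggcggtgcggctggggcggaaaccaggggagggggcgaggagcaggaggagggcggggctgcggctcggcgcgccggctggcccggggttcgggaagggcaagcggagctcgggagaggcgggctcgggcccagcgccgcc
MTHFD1 (chr14:64388103-64388402, plus strand): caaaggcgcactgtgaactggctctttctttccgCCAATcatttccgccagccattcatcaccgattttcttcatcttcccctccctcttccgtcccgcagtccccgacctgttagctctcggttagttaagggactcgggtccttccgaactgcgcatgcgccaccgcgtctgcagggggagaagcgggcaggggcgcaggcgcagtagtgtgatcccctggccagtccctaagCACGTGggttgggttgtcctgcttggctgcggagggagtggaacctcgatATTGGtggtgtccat
MTHFD1L has 4 annotated starts, of which the first listed is shown. Its window held TGATGCAA 129 bases before the start, and 3 of its 4 windows, which overlap one another, contain this same site. TGATGNAA was found in 3.62% of 35116 promoter windows and in 1.995% of the 14887 windows of tested genes, and in none of the windows of PHGDH, PSAT1, SHMT1, MTHFD1 and MTHFD2. CCAAT, found in 34.6% of all windows, was present at each of the 6 genes with an entry, with 3 copies at PSAT1, 1 each at PHGDH and MTHFD1L and 2 each at SHMT1, MTHFD1 and MTHFD2. CACGTG, found in 7.26% of all windows, occurred at MTHFD1, 15 bases before the start, and at MTHFD1L, 154 bases before it. The windows are short, and a match is a description of letters and not evidence of binding. Windows of PSPH, SHMT2 and ALDH1L2 were not analysed here.

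PHGDH (ENSG00000092621.13, chromosome 1, 119648411 to 119744226, plus strand) opens the pathway and is often taken as its gate. It had 0.699, 0.927 and 1.09 CPM in siRNA-1 libraries, against 11.8, 19.5 and 13.8 CPM in siCTRL libraries. All 3 siRNA-1 values lay near 1 CPM and rested on 10, 14 and 16 counts, so the remaining level is known only roughly. The mean was 0.905 ± 0.197 CPM in siRNA-1 and 15.1 ± 3.97 CPM in siCTRL cells (SD, n = 3 each), a log2 fold change of -4.03 (SE 0.257). Only 3 of the 12440 genes tested had a lower log2 fold change. Within the controls siCTRL 2 was highest, at 1.52 times the mean of the others, and without it the log2 fold change of PHGDH was -3.82.

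PSAT1 (ENSG00000135069.14, chromosome 9, 78297143 to 78330093, plus strand) encodes the aminotransferase of the pathway. It had 88.1, 88.6 and 80.5 CPM in siRNA-1 libraries, against 284, 392 and 290 CPM in siCTRL libraries. Here too siCTRL 2 stood highest, at 1.37 times the mean of the other controls, yet every control exceeded every siRNA-1 library by a wide margin. The log2 fold change was -1.91 (SE 0.110) with all libraries and -1.76 without siCTRL 2. PSPH (ENSG00000146733.14, chromosome 7, 56011051 to 56051604, minus strand), the phosphatase of the last step, had 34.4, 35.2 and 33.0 CPM in siRNA-1 libraries, against 61.1, 69.3 and 63.5 CPM in siCTRL libraries. Its values were tight within both groups, and its log2 fold change was -0.92 (SE 0.070). The difference thus grew smaller along the pathway, from the first enzyme to the last.

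**Figure D1:**
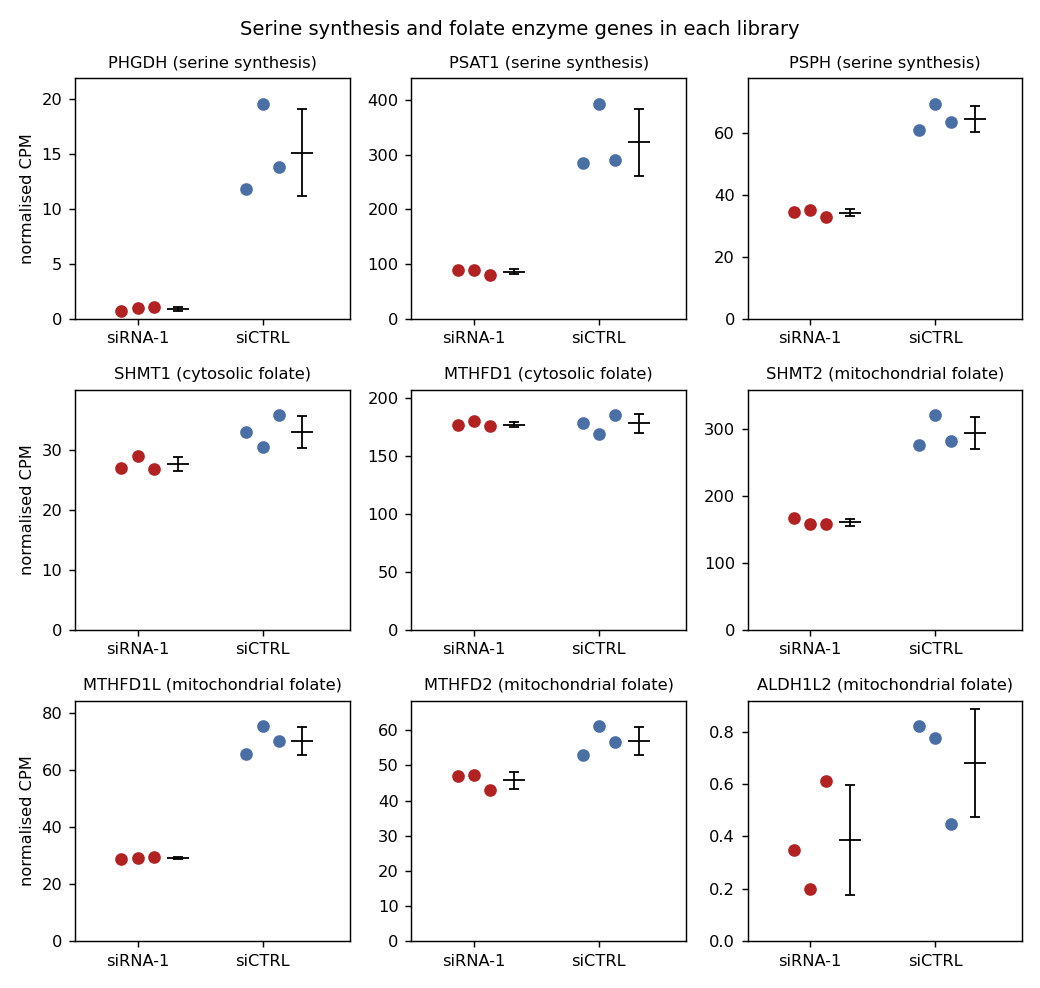
Normalised CPM (y axis, linear, from 0) of the 9 genes in each of the 3 siRNA-1 (left) and 3 siCTRL (right) libraries, drawn in the order of replicates 1 to 3. Points are libraries and the bar beside them is the mean ± SD (n = 3). Every siRNA-1 point lies below every siCTRL point in 7 panels, while MTHFD1 and ALDH1L2 overlap, and siCTRL 2 is the highest control for PHGDH (19.5 CPM) and PSAT1 (392 CPM).

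Among the mitochondrial folate genes, MTHFD1L (ENSG00000120254.16, chromosome 6, 150865549 to 151101887, plus strand), the formate-releasing enzyme, differed most. It had 28.6, 29.1 and 29.4 CPM in siRNA-1 libraries, against 65.5, 75.3 and 70.1 CPM in siCTRL libraries. The siRNA-1 values differed from one another by under 1 CPM, and the log2 fold change was -1.27 (SE 0.071). SHMT2 (ENSG00000182199.11, chromosome 12, 57229327 to 57234935, plus strand) had 167, 159 and 158 CPM in siRNA-1 libraries, against 277, 321 and 282 CPM in siCTRL libraries, with a log2 fold change of -0.87 (SE 0.065).

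MTHFD2 (ENSG00000065911.13, chromosome 2, 74198562 to 74217565, plus strand), the mitochondrial dehydrogenase that is low in most adult tissues and high in many tumours, was much closer to control. It had 47.0, 47.2 and 42.9 CPM in siRNA-1 libraries, against 53.1, 61.1 and 56.8 CPM in siCTRL libraries. The groups did not overlap, with every siRNA-1 library below the lowest control, and the log2 fold change was -0.32 (SE 0.073). Exons of genes on the opposite strand, mainly SLC4A5 (27.2%), cover 33.2% of the exonic bases of MTHFD2 in GENCODE 29. This share was 11.0% for MTHFD1, 9.51% for SHMT2 and 2.69% or less for the other genes. If the counting ignored strand, which no source used here states, reads of such partners cannot be told apart. In addition 7 annotated pseudogenes are named after MTHFD2, 4 after PSAT1 and 1 each after PSPH, SHMT1 and MTHFD1, and how many reads they share with these genes was not tested. ALDH1L2 (ENSG00000136010.14, chromosome 12, 105019784 to 105084577, minus strand) was near the limit of detection, with 5, 3 and 9 counts in siRNA-1 libraries and 12, 10 and 6 counts in siCTRL libraries. These ranges overlap, and a difference was not detectable at this depth.

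The cytosolic folate genes differed little. MTHFD1 (ENSG00000100714.18, chromosome 14, 64388031 to 64463457, plus strand), which joins formate to tetrahydrofolate, had 177, 180 and 176 CPM in siRNA-1 libraries, against 178, 169 and 185 CPM in siCTRL libraries. The siRNA-1 values fell within the range of the controls, and the 95% interval of the log2 fold change ran from -0.11 to 0.10. Its sign was not stable, with values from -0.05 to 0.04 over 14 settings of the analysis. SHMT1 (ENSG00000176974.21, chromosome 17, 18327860 to 18363563, minus strand) had 27.0, 28.9 and 26.8 CPM in siRNA-1 libraries, against 32.9, 30.4 and 35.7 CPM in siCTRL libraries. All 3 siRNA-1 values were lower than the lowest control, by a narrow margin, and the log2 fold change was -0.26 (SE 0.083).

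Compartment alone did not order the genes. The 5 cytosolic genes ranged in log2 fold change from -4.03 (PHGDH) to near 0 (MTHFD1), with a median of -0.92, and the 3 tested mitochondrial genes ranged from -1.27 to -0.32, with a median of -0.87. Within the folate enzymes the log2 fold change was lower for SHMT2 (-0.87) than for its cytosolic counterpart SHMT1 (-0.26). It was also lower for MTHFD1L (-1.27) than for MTHFD1 (near 0), whereas MTHFD2 (-0.32) was close to SHMT1. Per kilobase of the main annotated transcript, the level of SHMT2 was 6.03, 5.34 and 5.70 times that of SHMT1 in siRNA-1 libraries, against 8.19, 10.3 and 7.69 times in siCTRL libraries. MTHFD1L stood at 0.141, 0.141 and 0.145 times the level of MTHFD1 in siRNA-1 libraries, against 0.320, 0.387 and 0.329 times in siCTRL libraries. Neither ratio overlapped between the groups, which is a description only, since these genes and their split were chosen on this contrast. How often ratios of other gene pairs separate in this way was not examined. The mitochondrial share of the summed level per kilobase of the 6 folate genes was 54.7% ± 0.830 in siRNA-1 and 67.8% ± 2.63 in siCTRL cells (SD, n = 3 each). The summed level of the cytosolic pair was 67.8 ± 1.08 CPM per kilobase in siRNA-1 and 70.1 ± 3.64 CPM per kilobase in siCTRL cells, while that of the 4 mitochondrial genes was 81.9 ± 2.30 CPM per kilobase in siRNA-1 and 148 ± 11.6 CPM per kilobase in siCTRL cells. The share and the sums depend on the transcript length taken. Over all annotated exons MTHFD1 had 18.9 and SHMT2 33.3 CPM per kilobase in siRNA-1 cells, against 56.6 and 63.6 over the main transcript. The share on that scale was not computed.

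**Figure D2:**
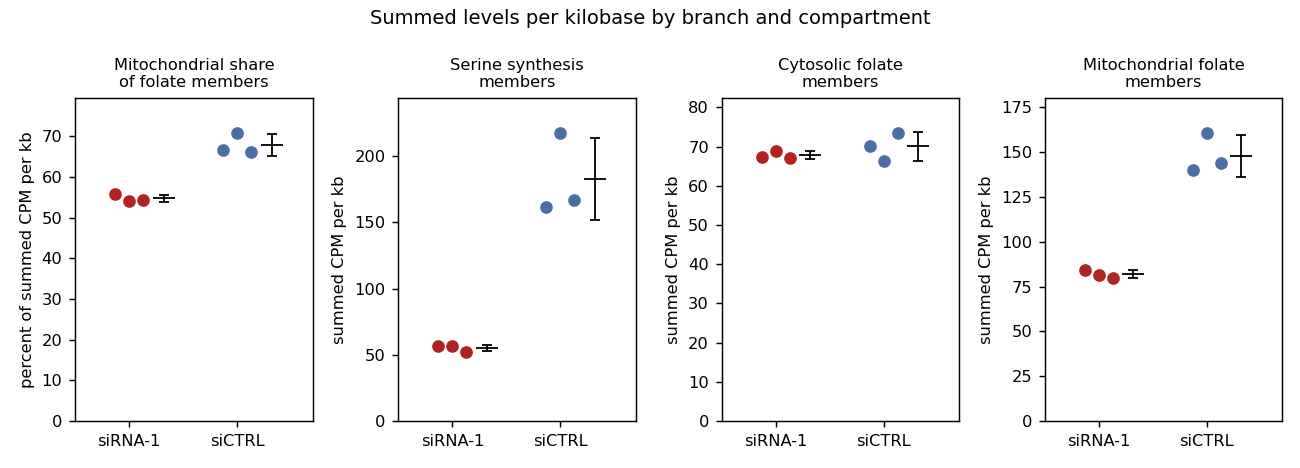
Levels per kilobase of the main transcript in each library, siRNA-1 left and siCTRL right, as the mitochondrial share of the 6 folate genes (percent) and as sums over the 3 serine synthesis, 2 cytosolic folate and 4 mitochondrial folate genes (CPM per kilobase). Points are libraries and bars the mean ± SD (n = 3); the cytosolic sums overlap between the groups (67.0 to 69.0 in siRNA-1, 66.4 to 73.6 in siCTRL) and the other 3 quantities do not.

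The order of the levels per kilobase of the main transcript differed between the groups. In siRNA-1 cells SHMT2 led with 63.6 ± 2.08 CPM per kilobase, before MTHFD1 (56.6 ± 0.623), PSAT1 (39.2 ± 2.08), PSPH (15.7 ± 0.525), SHMT1 (11.2 ± 0.463), MTHFD2 (10.3 ± 0.552) and MTHFD1L (8.05 ± 0.114), with PHGDH at 0.350 ± 0.0761 and ALDH1L2 at 0.0513 ± 0.0278 (SD, n = 3). In siCTRL cells PSAT1 led with 147 ± 27.7 CPM per kilobase, before SHMT2 (116 ± 9.50), MTHFD1 (56.7 ± 2.56), PSPH (29.7 ± 1.93), MTHFD1L (19.5 ± 1.37), SHMT1 (13.4 ± 1.08), MTHFD2 (12.8 ± 0.90), PHGDH (5.82 ± 1.54) and ALDH1L2 (0.0903 ± 0.0272). Libraries of neighbours in these orders overlapped at SHMT1 and MTHFD2 in siCTRL cells and at no other pair. PSAT1 exceeded PHGDH by 149, 113 and 87.2 times per kilobase in siRNA-1 libraries, against 28.4, 23.7 and 24.8 times in siCTRL libraries. Levels between genes depend on the transcript length taken: over all annotated exons PSAT1 led in both groups, with 39.2 CPM per kilobase in siRNA-1 and 147 in siCTRL cells, before SHMT2 with 33.3 in siRNA-1 and 60.7 in siCTRL cells. On that scale PSPH (23.4 CPM per kilobase in siCTRL) also stood above MTHFD1 (19.0) in control cells.

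Other folate enzymes did not move as one. The counts of this and the later lists stand beside 31.0% lower and 31.5% higher of all genes tested. Of 8 further genes listed as cytosolic, 6 were tested, and 2 rose, 1 fell (2 without siCTRL 3) and 3 did not pass. GGH, a hydrolase that shortens folate tails, fell 1.30-fold (61.3 ± 2.06 in siRNA-1 and 79.9 ± 2.17 CPM in siCTRL cells, adjusted p = 0.000137, edgeR). The place of GGH among cytosolic genes comes from the list alone and was not checked. TYMS, which makes thymidylate (log2 fold change -0.12, adjusted p = 0.176), and ALDH1L1, the cytosolic relative of ALDH1L2 (1.99 ± 0.743 CPM in siRNA-1 and 2.23 ± 0.353 CPM in siCTRL cells, adjusted p = 0.662), did not pass.

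Of 5 further mitochondrial folate genes, 4 were tested, and 2 fell, 1 rose and 1 did not pass. MTFMT, which formylates the initiator methionyl-tRNA of mitochondria, fell by 0.81 on the log2 scale (adjusted p = 0.000492). MTHFD2L, the close relative of MTHFD2, was low and rose 1.34-fold (7.65 ± 1.14 in siRNA-1 and 5.71 ± 0.452 CPM in siCTRL cells, adjusted p = 0.0316), a call lost without siRNA-1 1, siRNA-1 2, siCTRL 1 or siCTRL 3, at a threshold of 0.01 and with the Wald test of DESeq2. Of 4 glycine cleavage genes, 1 was tested and did not pass, and GLDC, its decarboxylase, had 0 to 0.273 CPM in each library.

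**Figure D3:**
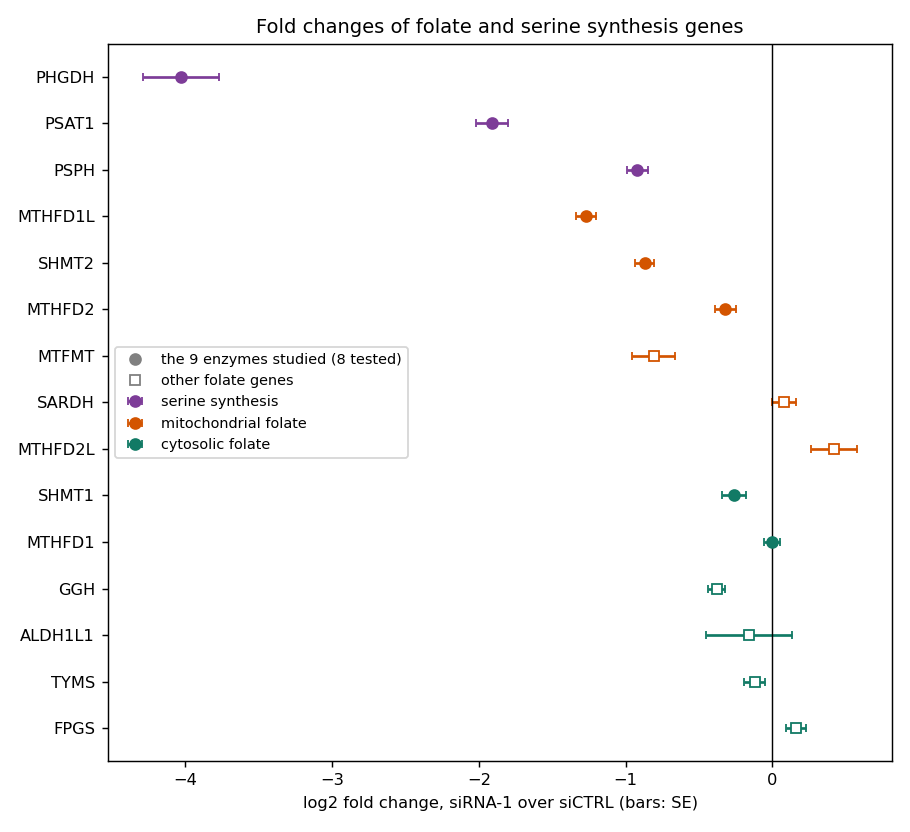
Log2 fold change of siRNA-1 over siCTRL (x axis, bars give the SE) for 8 of the 9 genes (filled circles) and for 7 other tested folate genes (open squares), coloured by branch and compartment. Serine synthesis genes lie between -4.03 and -0.92, and MTHFD1L, SHMT2 and MTHFD2 between -1.27 and -0.32. The folate genes listed as cytosolic and drawn lie between -0.38 (GGH) and 0.16 (FPGS).

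Carriers of serine and glycine were mostly lower. Of 9 tested, 7 fell and 2 rose, beside 31.0% lower and 31.5% higher of all genes tested. The number that fell was 6 without siRNA-1 1, siRNA-1 2, siCTRL 1 or siCTRL 3 and at a threshold of 0.01. Their median log2 fold change was -0.50, against 0.006 over all genes tested. SLC1A4, which carries serine and other small neutral amino acids, had 19.3, 22.2 and 18.2 CPM in siRNA-1 libraries, against 50.4, 60.6 and 54.0 CPM in siCTRL libraries, and fell 2.76-fold (adjusted p = 1.46e-07, edgeR). The glycine transporter gene SLC6A9 fell by 1.33 on the log2 scale (adjusted p = 1.55e-06). SFXN1, which brings serine into mitochondria, moved the other way, with 173, 178 and 168 CPM in siRNA-1 libraries, against 98.7, 97.5 and 99.2 CPM in siCTRL libraries (1.75-fold higher, adjusted p = 1.34e-07). Thus SFXN1 rose while SHMT2, which uses mitochondrial serine, was lower. The related genes SFXN3 (log2 fold change -0.56, adjusted p = 9.67e-05, edgeR) and SFXN2 (-0.4, adjusted p = 0.0198) of the same list fell. At SFXN2 the groups overlapped, with siRNA-1 values up to 12.9 CPM and siCTRL values down to 12.7 CPM. Of 3 tested folate carriers 0 fell (1 without siCTRL 2) and 1 rose, the exporter ABCC1 (1.44-fold, adjusted p = 1.61e-05), and FOLR1 (log2 fold change -0.39, adjusted p = 0.101) and SLC46A1 (-0.24, adjusted p = 0.159) did not pass.

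Glycolysis genes on either side of 3-phosphoglycerate fell more often than they rose, beside 31.0% lower and 31.5% higher of all genes tested. Upstream 6 of 11 fell, 2 rose (4 without scaling) and 3 did not pass, and the median was -0.21 on the log2 scale. The number that fell was 5 without scaling, with a block for the replicate number and at a threshold of 0.01. It was 5 or 6 with 1 library left out. HK2 was called lower although its groups overlapped. PFKL, a phosphofructokinase, fell 3.48-fold to 45.0 ± 1.73 CPM in siRNA-1, against 156 ± 10.9 CPM in siCTRL cells (adjusted p = 2.33e-09). PFKP (log2 fold change -0.50) and PGK1, which makes 3-phosphoglycerate (-0.33), fell too. Downstream 4 of 6 fell and 2 rose (median -0.46). PKM, which encodes a pyruvate kinase with a form known to be activated by serine, fell 2.24-fold to 1290 ± 36.8 CPM in siRNA-1, against 2900 ± 200 CPM in siCTRL cells (adjusted p = 1.84e-08), and LDHA (-0.50) and ENO1 (-0.49) fell.

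Pathways that use the carbon units gave a mixed picture. In purine synthesis, 3 of 12 genes fell, 3 rose and 6 did not pass, with a median log2 fold change of 0.02. PFAS (log2 fold change -0.95, adjusted p = 5.39e-07, edgeR) and PAICS (-0.33, adjusted p = 0.00012) fell, and PRPS1, which makes the sugar phosphate that purines are built on, rose (0.59, adjusted p = 1.37e-05). In the list for the methionine cycle and transsulfuration, 5 of 8 tested genes fell and 2 rose (median -0.41). AHCY, which clears S-adenosylhomocysteine, fell by 0.73 on the log2 scale, and CTH, which makes cysteine from cystathionine, fell by 1.11. The falls include the AHCY-like genes AHCYL2 (-0.62) and AHCYL1 (-0.31), whose part in the cycle was not checked. Genes of other serine and amino-group reactions split evenly, with 3 of 10 lower, 3 higher and 4 that did not pass. There PTDSS1, which builds phosphatidylserine, rose 1.66-fold, SPTLC2, a subunit of the enzyme that condenses serine for sphingolipids, fell by 0.78 on the log2 scale, and GPT2 fell by 0.61. Without siCTRL 2, 5 genes of this list fell.

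ATF4, known to drive several of these genes, had 217, 217 and 203 CPM in siRNA-1 libraries, against 310, 363 and 315 CPM in siCTRL libraries. Its level fell 1.55-fold (log2 fold change -0.63, SE 0.067, adjusted p = 6.79e-06, edgeR), and all siRNA-1 values lay below all controls. MYC, another known activator of serine and folate genes, fell 1.45-fold (120 ± 6.74 in siRNA-1 and 174 ± 9.18 CPM in siCTRL cells, adjusted p = 1.29e-05). In the list of 12 regulators, 4 fell, 6 rose and 2 did not pass, and the members with the smallest p were KEAP1 (1.48-fold higher), EIF2AK1, a kinase of the eIF2 pathway (1.42-fold higher), and ATF4. Of 12 further targets of ATF4, 11 fell and 0 rose, beside 31.0% lower and 31.5% higher of all genes tested. Their median was -1.14 on the log2 scale. TRIB3 (-2.0), SLC7A11 (-1.44) and CHAC1 (-2.07) had the smallest p. Falls of these targets were already known when the list was written. In siCTRL 2, 10 of the 12 targets (83.3%) and 6 of the 8 tested enzyme genes (75.0%) were higher than in both other controls, against 41.2% of all genes tested.

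**Figure D4:**
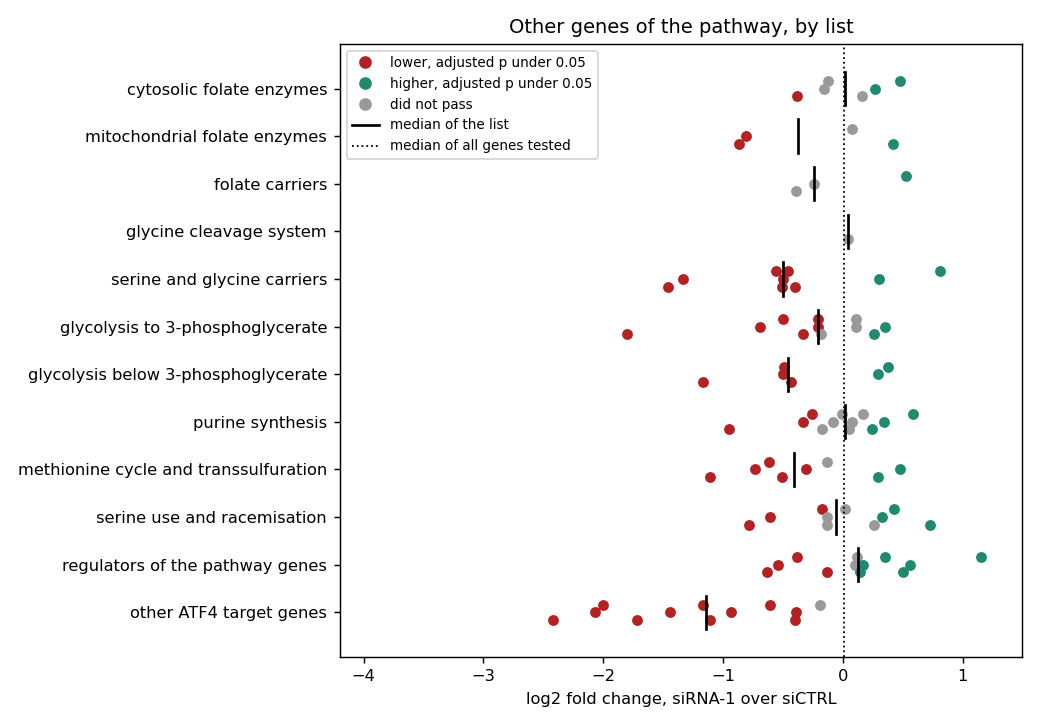
Log2 fold change of siRNA-1 over siCTRL (x axis) for each tested gene of 12 lists, with the 9 enzymes themselves left out. Red points fell, green points rose and grey points did not pass (adjusted p under 0.05, edgeR), black bars are list medians and the dotted line is the median of all genes tested (0.006). The list of other ATF4 targets has the lowest median (-1.14), and purine synthesis lies at 0.02.

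Over the 12 lists together, 92 of 108 distinct genes were tested, and 44 fell, 24 rose and 24 did not pass, beside 31.0% lower and 31.5% higher of all genes tested.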

How the data were processed

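The deposited table gives raw counts per Ensembl gene for 6 libraries of total RNA, made by the authors with HTSeq per the file headers and labels. The submitters' processing notes also name Trimmomatic, STAR, kallisto and the build hg38, without versions or roles. Neither the annotation release nor the strand setting is given in these sources. Symbols for all 20042 genes were looked up from their Ensembl identifiers, and positions come from GENCODE 29 (GRCh38). The analysis ran in edgeR 4.0.16 under R 4.3.3. There filterByExpr (minimum count 10, minimum total 15) kept 12440 genes, libraries were scaled by TMM, and siRNA-1 was compared with siCTRL by the two-sided quasi-likelihood F test with no covariate. P-values were adjusted by Benjamini-Hochberg across the 12440 genes, with 0.05 as the threshold. The SE is the log2 fold change divided by the root of F, and 95% intervals are normal intervals around the fold change. Levels per kilobase used the length of the longest best-ranked APPRIS transcript. The 95% intervals include the spread between libraries, whereas the limit set by 3 counts covers counting error only. The steps were tested on simulated counts. The enzymes and all gene lists were chosen with earlier results of these data known. Genes named from a list were the 3 with the smallest adjusted p, besides ATF4, MYC, TYMS, MTHFD2L, ALDH1L1 and GLDC, and other names were picked with their values in view. Some genes of the lists are counted but not reported here by name. The alternatives tried were DESeq2 1.42.0 (size factors or Wald test), limma-voom (limma 3.58.1), no scaling, no filter, a mean of at least 100 counts, a threshold of 0.01, a block for the replicate number and omission of each library in turn.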

Additional observations from a re-analysis of the deposited data

How the results depend on the processing

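Over 14 settings the log2 fold changes of the 8 tested enzyme genes stayed within -4.19 to -3.82 for PHGDH, -2.0 to -1.76 for PSAT1, -0.97 to -0.88 for PSPH, -0.33 to -0.20 for SHMT1, -0.05 to 0.04 for MTHFD1, -0.92 to -0.81 for SHMT2, -1.34 to -1.24 for MTHFD1L and -0.38 to -0.27 for MTHFD2. Leaving out 1 library in turn gave 6 or 7 enzyme genes called lower and 0 higher, 3413 to 4306 genes lower and 3424 to 4329 higher in all, 40 to 49 other pathway genes lower and 22 to 27 higher, and medians of -0.97 to -0.88 for cytosolic and -0.92 to -0.81 for mitochondrial enzyme genes. At a threshold of 0.01, 6 enzyme genes were called lower. Samples with the same replicate number did not visibly deviate together (r of 0.0669, -0.0782 and -0.0571 for numbers 1 to 3, across genes). With 3 libraries per group and siCTRL 2 apart from the other controls, these values cannot decide whether the cultures were paired. With the replicate block, 3731 genes were called lower and 3804 higher, and 7 enzyme genes were called lower. Without a filter on low counts, ALDH1L2 had a log2 fold change of -0.80, a value that rests on few counts. Depth limits what can be said of ALDH1L2 and of the remaining PHGDH level.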

Other observations

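Genes whose centred log2 CPM profiles over the 6 libraries were nearest to 3 of the enzyme genes were picked by root mean square distance. Nearest to PHGDH were FCF1 (distance 0.397, log2 fold change -3.39), F2RL3 (0.416, -5.22) and ROBO4 (0.464, -3.0). F2RL3 had a mean of only 0.0687 ± 0.0682 CPM in siRNA-1 cells, less than 3 counts are worth, so its values are known only roughly. Nearest to PSAT1 were APOL6 (0.0677, -1.82), LRBA (0.0736, -1.96) and MKX (0.0768, -1.96). Nearest to MTHFD2 were OAS1 (0.0372, -0.37), ZCCHC4 (0.0376, -0.33) and ANKRD13D (0.0393, -0.30).

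The sequence GCTCACT, picked from falls in these same data by an earlier analysis, occurred in the longest annotated 3' UTR of 5 of the 9 enzyme genes. PHGDH held 1 match in 353 bases, PSPH 1 in 695, MTHFD2 1 in 3323, MTHFD1 2 in 3522 and ALDH1L2 2 in 4634. PSAT1, SHMT1, SHMT2 and MTHFD1L held none. Among tested genes, which leave out ALDH1L2, 19.0% of those with a 3' UTR held it, whatever the length of that UTR. The share was 36.4% for genes called lower at least 2-fold and 17.5% for the others. As the sequence was picked from these falls, that difference was set in advance. Nothing is read from it or from the matches in the enzyme genes.

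Some genes that most cells use were listed at very low levels. SLC25A32, the mitochondrial folate carrier, was listed at 0 in all libraries, the aldolase gene ALDOA at 2.24 to 3.05 CPM and IMPDH2, an enzyme of guanine nucleotide synthesis, at 2.10 to 2.72 CPM. In GENCODE 29 other genes on the same strand cover 69.7% of the exonic bases of SLC25A32 and 42.3% of those of ALDOA, but 0% of those of IMPDH2. Among the 9 enzyme genes this share was 0% except at SHMT1 (1.0%). The part of such overlap in the listed levels was not tested.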
